A study of Bos taurus with 48 samples.

Results

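EIF1 (ENSBTAG00000002282), EIF2B2 (ENSBTAG00000008664) and AIMP2 (ENSBTAG00000007367) are 3 genes of the translation machinery that were followed through the oocyte and the surrounding cumulus cells of bovine cumulus-oocyte complexes (COCs). They were chosen by these identifiers, as genes that the study names under the function translation among its oocyte clusters, and they are 3 of the 24616 genes of the expression table. Each was described by its level in each sample type, by its difference within a COC and by its covariation with the other members in cumulus cells beside oocytes.

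Translation of most messenger RNAs begins when a small ribosomal subunit, carrying initiator tRNA brought by the factor eIF2, scans the 5′ leader for a start codon. EIF1 encodes eIF1, which sits on that subunit and keeps it from starting at the wrong codon, and EIF2B2 encodes the beta subunit of eIF2B, the exchange factor that reloads eIF2 with GTP and is the target of inhibition when eIF2 is phosphorylated under stress. AIMP2 encodes a scaffold protein of the multi-tRNA synthetase complex, which holds several of the enzymes that load tRNAs with amino acids. The oocyte grows on a large store of messenger RNA and protein that it makes itself, while cumulus cells surround it and supply it through gap junctions.

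PolyA+ RNA of 16 COCs was amplified with SMART-seq2, a protocol made for the small RNA yield of single cells, and each COC gave 3 libraries, from its denuded oocyte, from the cumulus cells next to the zona pellucida (innerCC) and from the outer cumulus layers (outerCC). The 3 libraries of a COC carry its number, so there were 16 libraries of each sample type and 48 in all. All samples were Bos taurus, untreated and collected ex vivo from slaughterhouse ovaries, and the COCs were picked for an even cytoplasm and many cumulus layers, with oocytes lysed directly and cumulus RNA extracted with TRIzol. The sources used here give neither the age of the cows nor which COCs came from the same cow, so the p-values measure the spread between COCs.

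Values are FPKM, the fragments of a gene scaled to its transcript length and to the fragments of its library, which can be compared between genes because length is divided out. Detection in a sample type took an FPKM over 0.5 in at least 8 of its 16 libraries, and the 12428 genes detected in at least 1 type were tested. The FPKM of all genes summed to between 161294 and 696268 in outerCC, with the lowest sums of both oocytes (367112) and outerCC in COC 180. The innerCC libraries fell into 2 sets by the number of genes over 0.5 FPKM, from 648 to 2639 genes in the 8 of COCs 176 to 184 and from 5876 to 10295 in the 8 of COCs 185 to 192. These sets are not conditions of the study, and results that involve innerCC are given for each. Oocyte markers (GDF9, BMP15, FIGLA, ZAR1 and NLRP5, the 5 of 8 that could be matched) summed to between 802 and 1996 FPKM in oocytes and had a median sum of 0.706 in outerCC, and cumulus markers (INHA, INHBA and CYP19A1, 3 of 11) summed to between 188 and 4798 in outerCC and had a median sum of 0.572 in oocytes. The highest sums on the wrong side both came from COC 191, with 342 FPKM of oocyte markers in its outerCC and 162 FPKM of cumulus markers in its oocyte. In innerCC the cumulus markers summed to between 3.05 and 1882 FPKM, against at most 70.1 for the oocyte markers. The innerCC of COC 190 had the highest GDF9 (12.5 FPKM), BMP15 (30.2), ZAR1 (10.7) and NLRP5 (12.8) of all innerCC. FIGLA was highest in that of COC 187 (5.56). In the innerCC of COCs 176 to 184 the medians were 4.85 FPKM for INHA, 4.73 for INHBA and 0 for CYP19A1. In those of COCs 185 to 192 they were 919, 393 and 5.64.

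EIF1 had the highest FPKM of the 3 genes in every oocyte and outerCC library, with no difference past the test between these types as deposited. In oocytes it ranged from 171 FPKM in COC 180 to 455 in COC 185, with a median of 321. In outerCC it ranged from 105 in COC 180 to 478 in COC 177, with a median of 313. The ranges overlapped almost throughout, and the oocyte was higher than its own outerCC in 9 COCs and lower in 7. At these levels a median of 2.89% of the genes tested were at or above EIF1 in an oocyte and 1.89% in an outerCC library.

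**Figure D1:**
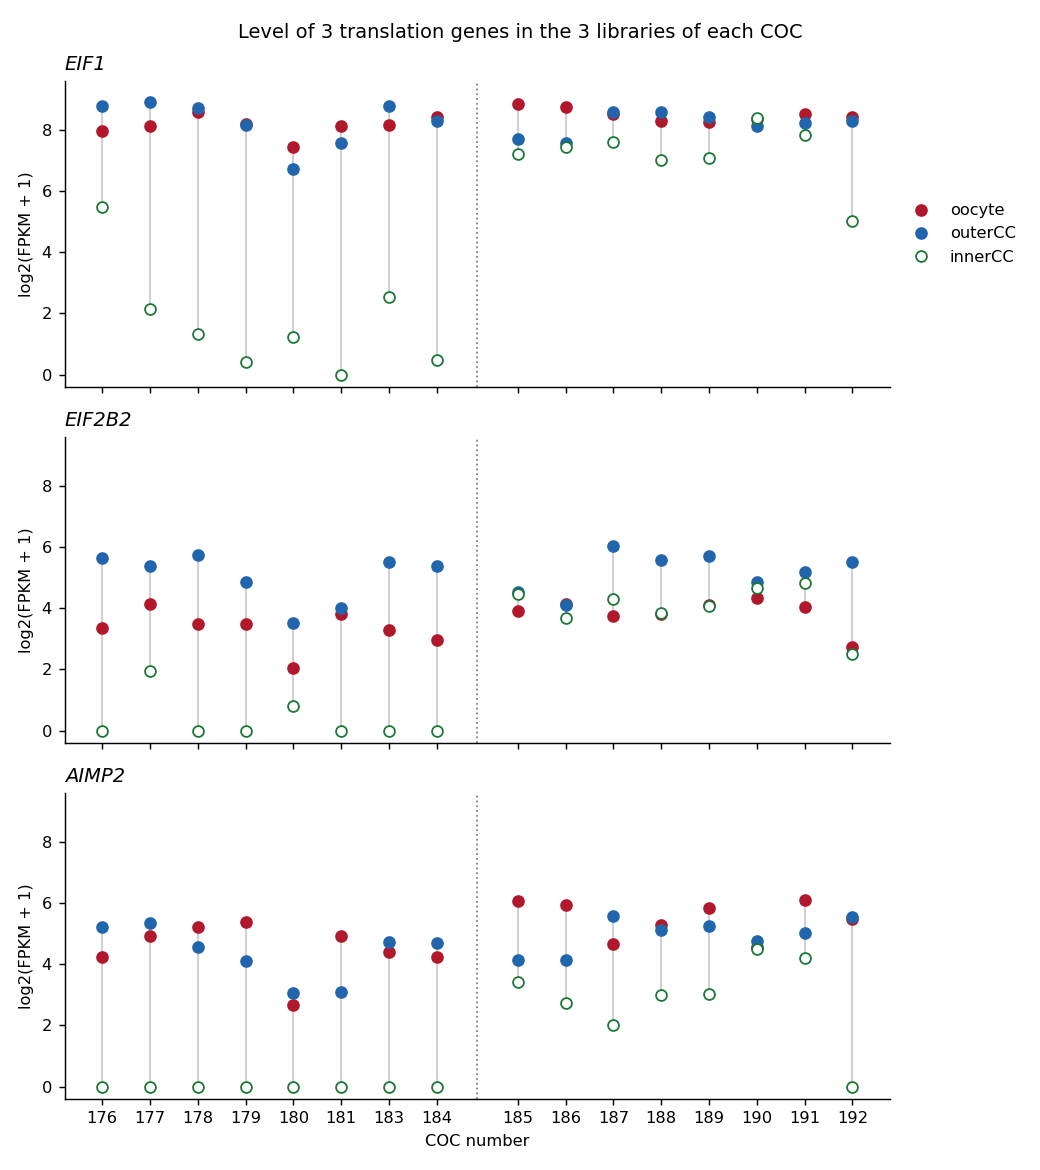
Level of EIF1, EIF2B2 and AIMP2 on the log2(FPKM + 1) scale (y axis) in the oocyte (red), outerCC (blue) and innerCC (open green) of each of the 16 COCs (x axis), with a grey line joining the 3 libraries of a COC and a dotted line between COCs 184 and 185. EIF2B2 was higher in outerCC than in the oocyte of 15 COCs, and in the innerCC of COCs 176 to 184 all 8 points of AIMP2 and 6 of 8 points of EIF2B2 lie at 0.

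EIF2B2 was the gene that separated the oocyte from the outer cumulus. Its FPKM ranged from 3.15 in COC 180 to 19.2 in COC 190 in oocytes (median 12.8), and from 10.5 in COC 180 to 64.4 in COC 187 in outerCC (median 40.6). The outerCC library was the higher in 15 of 16 COCs, and in the remaining one, COC 186, the oocyte held 16.5 FPKM and the outerCC 16.3. The oocyte held a median of 0.307 times the FPKM of its outerCC, with ratios from 0.128 to 1.01. Over all COCs the lowest outerCC libraries fell among the oocytes, so the FPKM ranges overlapped. The place of EIF2B2 within each library did not overlap: between 27.7% and 47.0% of the genes tested were at or above it in oocytes, and between 10.1% and 16.0% in outerCC. Of all genes tested, 16.2% stood farther from the top in every oocyte than in any outerCC library.

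AIMP2 varied most between oocytes. It ranged from 5.42 FPKM in COC 180 to 67.8 in COC 191 in oocytes (median 32.8), and from 7.25 in COC 180 to 47.2 in COC 187 in outerCC (median 25.6). The ranges overlapped, the oocyte was higher in 8 COCs and lower in 8, and the ratio of oocyte to outerCC ran from 0.483 to 3.97. In oocytes AIMP2 was lower in COCs 176 to 184 (5.42 to 40.8 FPKM) than in most of COCs 185 to 192 (22.7 to 67.8 FPKM), a difference between the sets that was not tested.

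The comparison of oocytes with outerCC, on log2(FPKM + 1) with limma, called 1 of the 3 genes at an adjusted p under 0.01, in a comparison where 43.4% of the genes tested were called higher in oocytes and 34.3% lower. EIF2B2 was lower in oocytes by 1.51 ± 0.231 (SE) on the log2 scale (limma adjusted p = 2.86e-07, n = 16 COCs). EIF1 differed by 0.0915 ± 0.175 (limma adjusted p = 0.628) and AIMP2 by 0.352 ± 0.281 (limma adjusted p = 0.242), neither past the test. Paired within COCs, the difference of EIF2B2 was -1.51 ± 0.846 (SD, n = 16; p = 6.10e-05, exact permutation of signs, two-sided), and the same test gave p = 0.543 for EIF1 and p = 0.171 for AIMP2. A logarithm of FPKM + 1 understates the change of genes at low FPKM. EIF2B2 was called with each COC left out in turn, COCs 180 and 191 included, and within COCs 176 to 184 (29.1% of genes called lower) and COCs 185 to 192 (27.8%).

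The scale mattered for the other 2 genes. The median gene tested was 0.254 higher in oocytes as deposited and 0.0395 higher once every library was rescaled to the same sum (here called the TPM scale). It was at -0.309 once libraries were brought to the same 75th percentile of their values above 0. That percentile depends on how many low values a library lists above 0. It ran from 17.0 to 27.0 FPKM in oocytes and from 4.06, in COC 180, to 21.3 in outerCC. EIF1 moved from 0.0915 as deposited to -0.221 on the TPM scale and -0.714 on the 75th percentile scale, where it passed the test (limma adjusted p = 7.91e-06) among 34.2% of genes called higher in oocytes and 45.4% lower, so its direction between oocyte and outerCC rests on the scaling. AIMP2 went to 0.0524 and -0.413 and passed neither test. EIF2B2 stayed lower in oocytes, by 1.86 and 2.25 on the log2 scale. Relative to the median gene, EIF2B2 stood at -1.76 as deposited, -1.90 on the TPM scale and -1.94 on the 75th percentile scale. Against the same medians EIF1 stood at -0.163, -0.260 and -0.405.

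**Figure D2:**
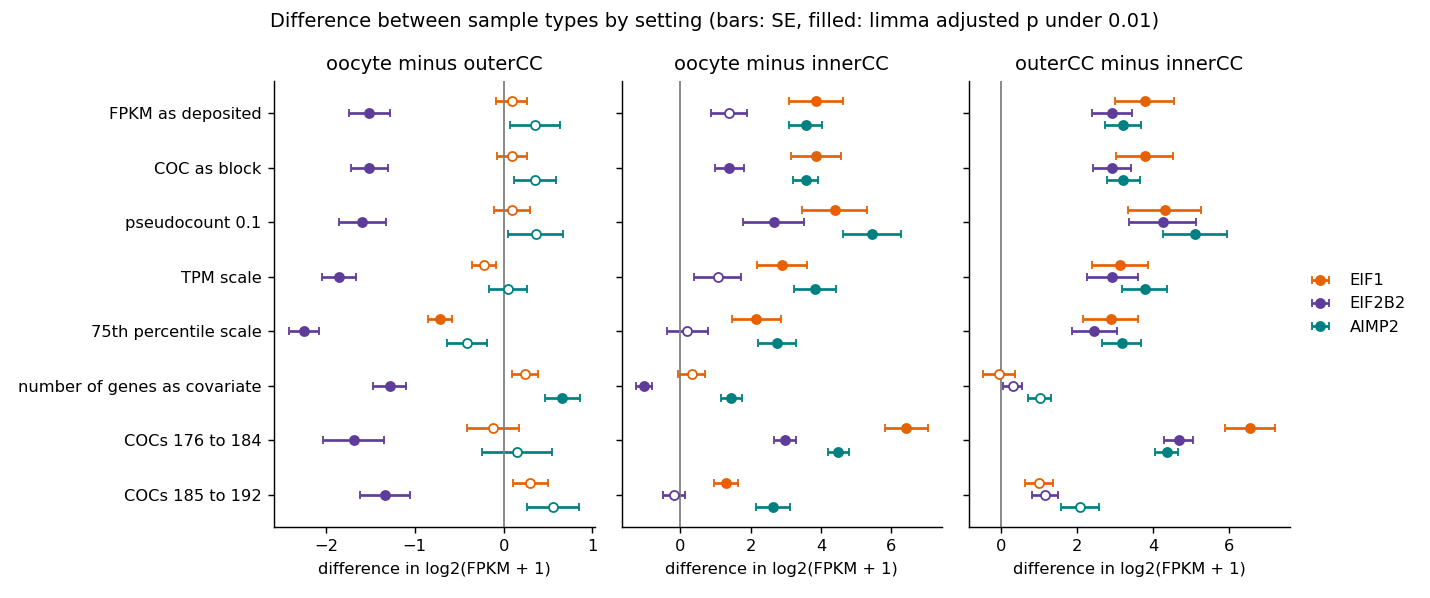
Differences of EIF1 (orange), EIF2B2 (purple) and AIMP2 (teal) between sample types, in log2(FPKM + 1) (x axis), under 8 settings (y axis), with bars for the SE and filled points for limma adjusted p under 0.01. EIF2B2 lies below 0 in oocyte minus outerCC under all 8 settings, and outerCC minus innerCC shrinks towards 0 in COCs 185 to 192 and with the number of genes as a covariate.

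In innerCC the 3 genes followed the split between the sets. In the innerCC of COCs 176 to 184, EIF1 was over 0.5 FPKM in 5 of 8 libraries, from a listing at 0 in COC 181 to 43.9 FPKM in COC 176 (median 1.44). EIF2B2 was listed at 0 in 6 of these 8 libraries and stood at 2.88 FPKM in COC 177 and 0.748 in COC 180, and AIMP2 was listed at 0 in all 8. A listing at 0 was common there, as these libraries held between 1465 and 6333 genes above 0 of the 24616 listed. In the innerCC of COCs 185 to 192, EIF1 ranged from 31.4 FPKM in COC 192 to 333 in COC 190 (median 159.7) and EIF2B2 from 4.61 in COC 192 to 27.3 in COC 191 (median 17.2). AIMP2 was listed at 0 in COC 192 and reached 21.7 in COC 190 (median 7.06). COC 192 was thus the lowest library of its set for all 3 genes. Its innerCC also had the fewest genes over 0.5 FPKM of the set, 5876, where the next lowest, COC 186, had 8353. Since these are bulk samples, fewer cells of a type and less RNA per cell cannot be told apart, and the depth of each library is unknown.

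Over all 16 COCs, the comparison with innerCC called EIF1 and AIMP2 higher in oocytes, where 63.2% of the genes tested were called higher and 4.53% lower, and all 3 genes higher in outerCC, where 77.4% of the genes tested were called higher and 0 lower by limma (4 genes lower at an unadjusted p under 0.05). With the number of genes as a covariate the call of EIF1 in oocytes was lost, at 0.321 (limma adjusted p = 0.457) against 3.86, and that of AIMP2 held at 1.45 (limma adjusted p = 6.54e-05). EIF1 was higher in outerCC than in innerCC by 3.77 ± 0.782 (SE, limma adjusted p = 9.67e-05), EIF2B2 by 2.91 ± 0.527 (limma adjusted p = 2.81e-05) and AIMP2 by 3.21 ± 0.471 (limma adjusted p = 5.49e-06). The number of genes moves with these differences: with it as a covariate they were -0.0432, 0.301 and 1.02, none past the test, and 0.0322% of all genes tested were called higher (1853 genes at an unadjusted p under 0.05). In COCs 176 to 184 all 3 were called higher in outerCC, where 80.4% of genes were. A fitted difference of a gene listed at 0 depends on the value added before the logarithm.

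Within COCs 185 to 192, EIF1 and AIMP2 were higher in oocytes than in innerCC and EIF2B2 was not. The differences were 1.30 ± 0.341 for EIF1 (limma adjusted p = 0.00213) and 2.63 ± 0.488 for AIMP2 (limma adjusted p = 8.48e-05), in a set where 48.8% of the genes tested were called higher in oocytes and 14.1% lower. EIF2B2 differed by -0.182 ± 0.308 (limma adjusted p = 0.603). The lowest AIMP2 level of these oocytes, 22.7 FPKM, lay just above the highest of their innerCC, 21.7 FPKM, both in COC 190, and 30.8% of the genes tested likewise did not overlap with oocytes on the higher side. The innerCC of COC 190 was also the one with the highest GDF9, BMP15, ZAR1 and NLRP5, as given above. The AIMP2 ranges did overlap on the TPM and 75th percentile scales. On the TPM scale AIMP2 was still called within this set (2.31 ± 0.602, limma adjusted p = 0.00207) and EIF1 was not (0.850 ± 0.421, limma adjusted p = 0.0786). On the 75th percentile scale neither was called, EIF1 at 0.0504 and AIMP2 at 1.52 (limma adjusted p = 0.0219), while EIF2B2 was called lower in oocytes by 1.35 on the log2 scale (limma adjusted p = 0.00120).

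Between the cumulus layers of COCs 185 to 192, none of the 3 genes passed the test at an adjusted p under 0.01. Of the genes tested 1.53% passed, each of them higher in outerCC. All 3 genes had an unadjusted limma p under 0.05, as did 6011 of the 12428 genes tested on the side of outerCC. The median gene tested was 0.707 higher in outerCC. The differences of outerCC minus innerCC were 0.997 ± 0.359 for EIF1 (limma adjusted p = 0.0475), 1.15 ± 0.336 for EIF2B2 (limma adjusted p = 0.0244) and 2.08 ± 0.507 for AIMP2 (limma adjusted p = 0.0143). Within COCs, outerCC was higher in 8 of 8 for EIF2B2 and AIMP2 (p = 0.00781 by exact permutation of signs, the smallest that 8 COCs allow) and in 7 of 8 for EIF1 (exact sign-flip permutation p = 0.0234). The share of all genes with such counts was not computed. On the TPM scale AIMP2 kept 8 of 8 (exact sign-flip permutation p = 0.00781), EIF2B2 was higher in 7 of 8 and EIF1 in 5 of 8, and there 0 of all genes passed the limma test (3201 higher in outerCC at an unadjusted p under 0.05). AIMP2 was thus the gene with the widest difference between the layers of these COCs, and its median ratio of outerCC to innerCC was 2.88 over the 7 COCs where it was above 0 in both. COC 192, whose innerCC had the fewest genes of the set, had the widest difference for EIF1 (3.27), EIF2B2 (3.01) and AIMP2 (5.53). AIMP2 was listed at 0 in that innerCC.

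The comparison of oocytes with innerCC for EIF2B2 over all COCs is the call that pairing changed. The difference of 1.40 ± 0.513 missed the threshold without a block (limma adjusted p = 0.0148) and passed it with the COC number as a replicate block (limma adjusted p = 0.00540). It was 2.97 ± 0.323 in COCs 176 to 184, where 73.9% of genes were called higher in oocytes, and -0.182 in COCs 185 to 192. With the number of genes as a covariate EIF2B2 was called lower in oocytes, at -1.03 ± 0.229 (limma adjusted p = 0.000179), where 43.7% of genes were called higher and 22.8% lower.

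The ratio of 2 genes within one library does not depend on how the library was scaled, apart from the value of 1 added before a logarithm, and it set the oocyte apart from the cumulus cells for EIF2B2. EIF1 was between 17.0 and 61.0 times as abundant as EIF2B2 in oocytes (median 27.8) and between 5.97 and 12.6 times in outerCC (median 9.25), with no overlap between the types. The share of other genes whose ratio to EIF2B2 does not overlap was not computed. Of the single genes tested, 43.4% were called higher in oocytes than in outerCC and 34.3% lower. AIMP2 was above EIF2B2 in all 16 oocytes, from 1.18 to 7.78 times (median 2.79), and above it in 2 of 16 outerCC libraries, where the ratio ran from 0.427 to 1.02 (median 0.734). The ratio of EIF1 to AIMP2 overlapped, from 5.35 to 31.6 in oocytes (median 9.59) and from 6.88 to 25.1 in outerCC (median 12.1).

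Tested within COCs on log2 of FPKM + 1, the ratio of EIF1 to EIF2B2 was higher in the oocyte by 1.60 ± 0.663 (SD, n = 16) and that of AIMP2 to EIF2B2 by 1.86 ± 0.719. Every COC showed both differences (exact permutation of signs, p = 3.05e-05 for each, the smallest that 16 COCs allow), 16 of 16 in each case. Both ratios hold EIF2B2, and the share of other genes that reach 16 of 16 against it was not computed. The ratio of EIF1 to AIMP2 differed by -0.260 ± 0.720, lower in 10 COCs and higher in 6 (exact sign-flip permutation p = 0.166).

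In the innerCC of COCs 185 to 192 the ratio of EIF1 to EIF2B2 had a median of 9.14, close to that of outerCC, and outerCC minus innerCC was -0.154 ± 0.389 (SD; exact sign-flip permutation p = 0.289). AIMP2 stood lower against both other genes in innerCC. AIMP2 to EIF2B2 had a median of 0.488 over the 7 libraries with both above 0 and was higher in outerCC by 0.924 ± 0.834 in 8 of 8 COCs (exact sign-flip permutation p = 0.00781). EIF1 to AIMP2 had a median of 18.4 and was lower in outerCC by 1.08 on the log2 scale in 8 of 8 COCs (exact sign-flip permutation p = 0.00781). In COC 192 AIMP2 was listed at 0 in innerCC, so both ratios there depend on the value of 1 added before the logarithm. Both ratios hold AIMP2, and the share of other genes that reach 8 of 8 against the same partner was not computed.

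**Figure D3:**
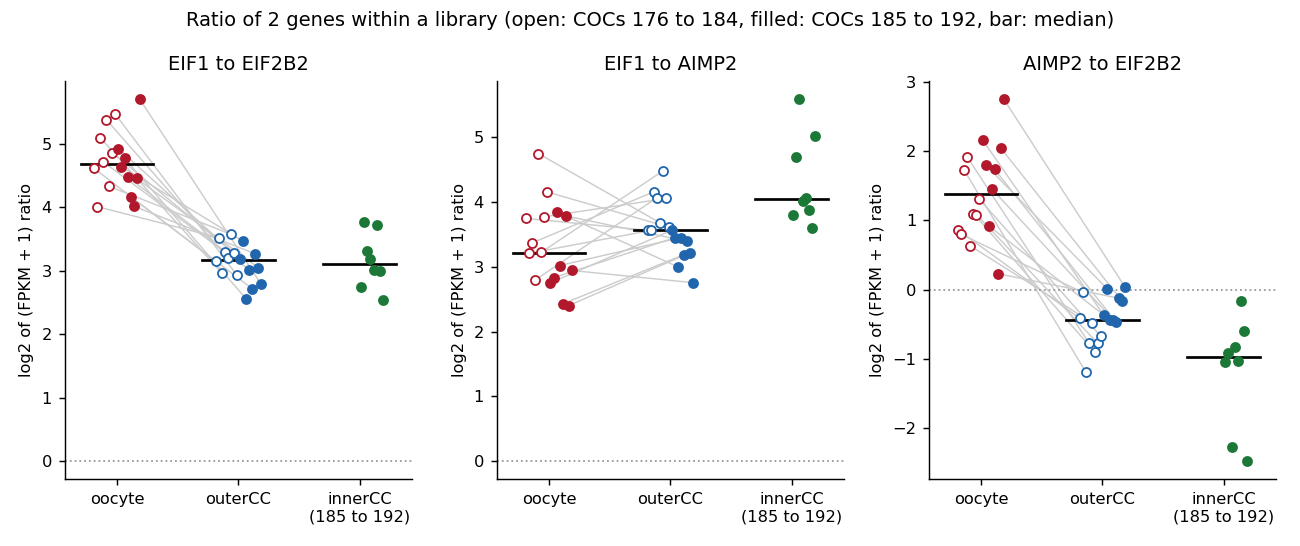
Ratio of 2 genes within a library as log2 of (FPKM + 1) ratios (y axis) in oocytes, outerCC and the innerCC of COCs 185 to 192 (x axis), with open points for COCs 176 to 184, filled points for COCs 185 to 192, black bars for medians and grey lines joining the oocyte and outerCC of a COC. All 16 lines fall from oocyte to outerCC for EIF1 to EIF2B2 and for AIMP2 to EIF2B2, and lines cross in both directions for EIF1 to AIMP2.

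The eIF2B subunits that could be matched did not share one direction. EIF2B1, which encodes the alpha subunit, ranged from 9.11 to 80.5 FPKM in oocytes (median 54.3) and from 0.632 to 20.0 in outerCC (median 8.48). It was above EIF2B2 in 16 of 16 oocytes (median 4.36 times) and below it in 16 of 16 outerCC libraries (median 0.215 times), and it was higher in oocytes by 2.52 ± 0.293 (limma adjusted p = 7.85e-10). EIF2B5, which encodes the catalytic epsilon subunit, was below EIF2B2 in every oocyte and outerCC library, with medians of 2.21 and 6.54 FPKM, and was lower in oocytes by 1.28 ± 0.174 on the log2 scale (limma adjusted p = 2.51e-08). EIF2B2 and EIF2B5 were thus lower and EIF2B1 higher in oocytes, directions that held on the TPM scale, on the 75th percentile scale and in both sets. The median ratio of EIF2B5 to EIF2B2 was 0.185 in oocytes and 0.214 in outerCC, and their ranges overlapped.

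AIMP1, which encodes another scaffold protein of the multi-tRNA synthetase complex, was above AIMP2 in 16 of 16 oocytes (median 3.09 times) and 16 of 16 outerCC libraries (median 3.50 times). Like AIMP2 it did not pass the test between oocytes and outerCC as deposited (0.311 ± 0.165, limma adjusted p = 0.0786). AIMP1 and IARS were the 2 matched genes of the multi-tRNA synthetase complex beside AIMP2. On the 75th percentile scale 0 of these 2 were called higher in oocytes and 1 was called lower. EIF1AX, whose product eIF1A binds the small subunit beside eIF1, had a median of 1.20 times EIF1 in oocytes and 0.964 times in outerCC. EIF5, which activates the GTPase of eIF2 at the start codon, was at 0.519 times EIF1 in oocytes and 0.198 times in outerCC.

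The wider set of initiation factors and tRNA synthetases held 67 symbols, of which 15 could be matched to an identifier and all 15 were tested. The symbols come from gene lists of the study, 1 of which holds genes specific to a sample type in these libraries, so the matched genes are not a neutral draw and their counts are a description. Between oocytes and outerCC, 8 of the 15 were higher in oocytes, 4 were lower and 3 did not pass the test, beside 43.4% and 34.3% of all genes tested, with a median difference of 0.867 against 0.254 over all genes tested, and on the 75th percentile scale 6 were higher and 6 lower. In 4 genes of the eIF1 partners and eIF3, EIF5 was the highest in oocytes (1.62 ± 0.178) and EIF3G, a subunit of the scaffold factor eIF3, the lowest (-1.71 ± 0.236). Of 3 genes of eIF2 and eIF2B, EIF2B1 and EIF2B5 had the widest differences in each direction, as given above. EIF2AK2, the kinase that phosphorylates eIF2 on double-stranded RNA, was the 1 matched gene of its list and was lower in oocytes by 2.00 ± 0.205 on the log2 scale.

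Of 4 genes of the eIF4 group, which binds the cap of messenger RNA, 3 were higher in oocytes and none lower, beside 43.4% and 34.3% of all genes. The widest difference was in EIF4E1B, an oocyte form of the cap-binding protein, at 6.32 ± 0.364. It had a median of 117 FPKM in oocytes and of 0 in outerCC, where it was over 0.5 FPKM in 4 libraries. IARS, the isoleucyl-tRNA synthetase of the multi-synthetase complex, was higher in oocytes by 0.867 ± 0.193 as deposited and was not called higher on the 75th percentile scale. CARS, the cysteinyl-tRNA synthetase outside that complex, was lower by 0.865 on the log2 scale. CARS passed the test over 16 COCs (limma adjusted p = 0.00615) and missed it within COCs 185 to 192 (-0.333 ± 0.340, limma adjusted p = 0.378), as IARS did (0.630 ± 0.260, limma adjusted p = 0.0342). Between outerCC and innerCC 14 of the 15 were higher in outerCC, beside 77.4% of all genes. The count was 10 on the 75th percentile scale and 0 with the number of genes as a covariate (limma, 1 higher at an unadjusted p under 0.05). The widest differences as deposited were those of EIF1AX (3.47 ± 0.782), EIF2S2 of the eIF2 complex (2.36 ± 0.616), EIF2AK2 (1.31 ± 0.338), EIF4A1, the helicase of the cap complex (3.19 ± 0.654), AIMP1 (3.17 ± 0.731) and CARS (1.81 ± 0.303) in their lists. Within COCs 185 to 192, 0 of the 15 passed the limma test, where 8 were higher at an unadjusted p under 0.05, beside 1.53% of all genes past the test and 6011 of 12428 higher at an unadjusted p under 0.05, and the median difference was 0.650 against 0.707 over all genes.

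**Figure D4:**
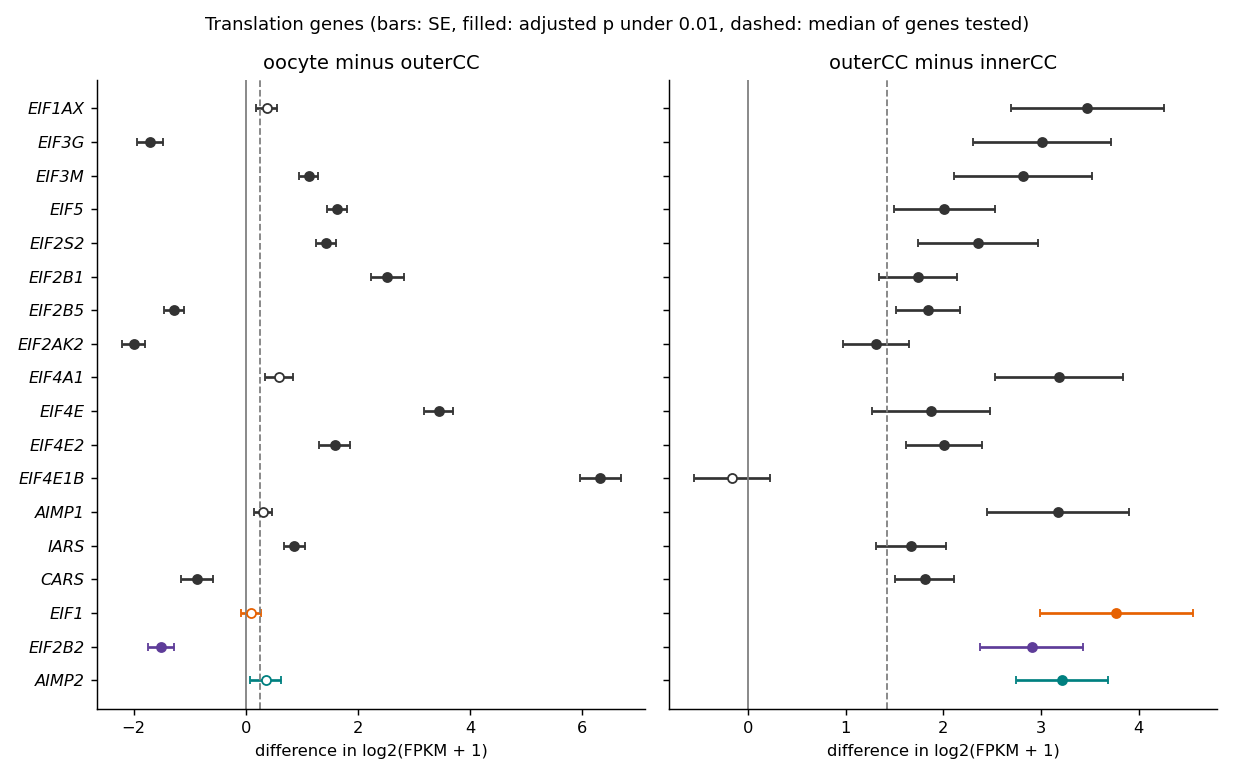
Differences in log2(FPKM + 1) (x axis) of the 15 matched translation genes (black) and of EIF1 (orange), EIF2B2 (purple) and AIMP2 (teal) for oocyte minus outerCC (left) and outerCC minus innerCC (right), with bars for the SE, filled points for limma adjusted p under 0.01 and a dashed line for the median of the genes tested. EIF2B1 lies to the right of 0 and EIF2B2 and EIF2B5 to the left of it in the left panel, and 14 of the 15 genes are filled in the right panel.

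Across the 16 outerCC libraries the 3 genes rose and fell together on the deposited scale. On log2(FPKM + 1), Pearson's r reached 0.925 for EIF1 with EIF2B2, 0.894 for EIF2B2 with AIMP2 and 0.822 for EIF1 with AIMP2. Permutation p-values of r, in that order, were 1e-05, the smallest that 100000 permutations can give, 2e-05 and 0.00015, or 9e-05, 9e-05 and 0.00045 once adjusted. Spearman's rho was 0.824, 0.774 and 0.682, with permutation p-values of 0.00017, 0.00073 and 0.0046, or 0.00153, 0.00328 and 0.0138 once adjusted. These are 3 of 9 relations tested, over which p-values were adjusted. Without the 2 libraries farthest from the median of the first gene, r was 0.855, 0.770 and 0.716 in the same order (permutation p = 8e-05, 0.00117 and 0.00359).

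Covariation of this size was common in outerCC. EIF1 had a median r of 0.693 with the other 10458 genes detected there, and 1.34% of them had an r with EIF1 at or above that of EIF2B2, against 20.7% at or above that of AIMP2. For EIF2B2, whose median r was 0.711, 7.53% of genes were at or above AIMP2. The level of a library moves with these values: the log2 sum of FPKM had an r of 0.834 with EIF1, 0.810 with EIF2B2 and 0.904 with AIMP2, and a median r of 0.638 with all genes detected in outerCC. On the TPM scale, where every library has the same sum, r was 0.724 for EIF1 and EIF2B2 (permutation p = 0.00167), 0.622 for EIF2B2 and AIMP2 (permutation p = 0.00918) and 0.150 for EIF1 and AIMP2 (permutation p = 0.579). Without COC 186, whose outerCC had the fewest genes over 0.5 FPKM (9054), these were 0.576, 0.532 and -0.0822. The number of genes had an r of 0.394 with EIF1, 0.642 with EIF2B2 and 0.705 with AIMP2 on the TPM scale. Its median r over all genes detected in outerCC was 0.395. On that scale the median r of EIF1 with all genes was 0.370, 5.10% of genes were at or above EIF2B2, and 76.3% were at or above AIMP2. For EIF2B2, whose median was 0.440, 22.8% of genes were at or above AIMP2.

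Within the sets on the TPM scale, EIF2B2 and AIMP2 had an r of 0.928 in the outerCC of COCs 185 to 192 (exact permutation p = 0.00208) and 0.445 in those of COCs 176 to 184 (exact permutation p = 0.265). EIF1 and AIMP2 had 0.730 (exact permutation p = 0.0486) and 0.179 (exact permutation p = 0.674), and EIF1 and EIF2B2 0.855 (exact permutation p = 0.0065) and 0.668 (exact permutation p = 0.0748). On the deposited scale all 3 pairs were between 0.911 and 0.961 in both sets. In COCs 176 to 184 such values were common: the median r of EIF1 with all genes was 0.869, 13.1% of genes were at or above EIF2B2 and 31.7% at or above AIMP2, against 1.21% and 8.01% in COCs 185 to 192. For EIF2B2, 24.5% and 1.34% of genes were at or above AIMP2 in these sets. With the number of genes as a covariate, r in outerCC was 0.871 for EIF1 and EIF2B2, 0.815 for EIF2B2 and AIMP2 and 0.701 for EIF1 and AIMP2.

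In oocytes the same pairs had an r of 0.566 for EIF1 and EIF2B2, 0.664 for EIF2B2 and AIMP2 and 0.795 for EIF1 and AIMP2, given without a test because the study named the genes from their covariation in these oocytes. On the deposited scale the order of the pairs was the reverse of that in outerCC, where the median r with other genes was higher. For EIF1, whose median r with the other genes detected in oocytes was 0.249, 17.4% were at or above EIF2B2 and 2.04% at or above AIMP2. For EIF2B2, with a median of 0.259, 5.57% were at or above AIMP2. Whether any pair differed between the types was not tested. The number of genes in the library had an r of 0.767 with EIF1, 0.703 with EIF2B2 and 0.869 with AIMP2 in oocytes, against a median of 0.316 over all genes detected there. With the number of genes as a covariate the 3 values were 0.0593, 0.151 and 0.406 in the order above. COC 180, the oocyte lowest in all 3 genes and in the number of genes (8525), stood apart from the rest, and without it r was 0.169, 0.364 and 0.594. On the TPM scale the values over 16 oocytes were 0.414, 0.520 and 0.421. In the oocytes of COCs 176 to 184, COC 180 included, r on the deposited scale was 0.595, 0.860 and 0.803 in the order above. In those of COCs 185 to 192 it was 0.0563, 0.000511 and 0.440. On the TPM scale r was 0.0563, 0.756 and 0.296 in the first set and 0.511, 0.0286 and 0.0770 in the second.

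**Figure D5:**
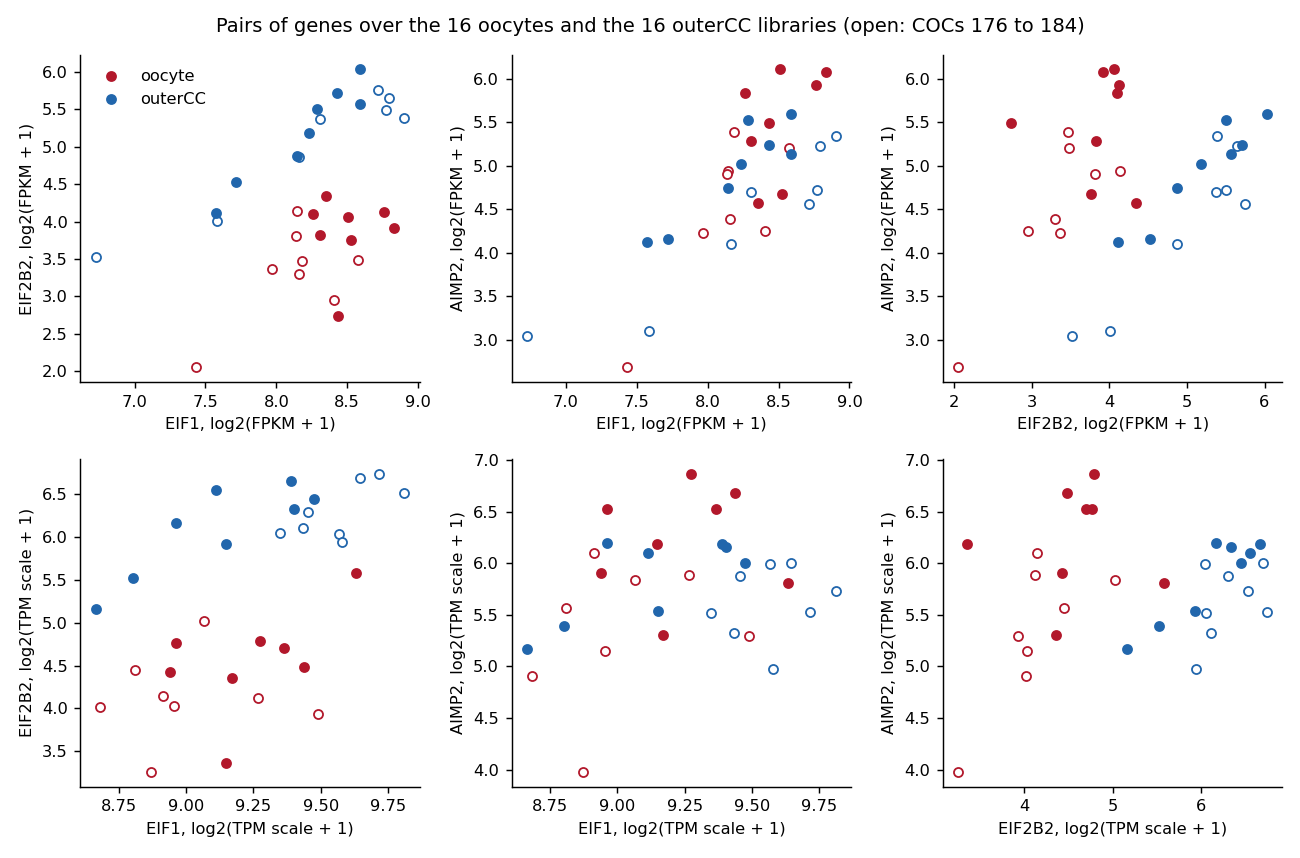
Each pair of the 3 genes over the 16 oocytes (red) and the 16 outerCC libraries (blue), on log2(FPKM + 1) in the upper row and on the log2 TPM scale in the lower row, with open points for COCs 176 to 184. In the upper row outerCC points lie along a line in each pair, r between 0.822 and 0.925, and in the lower row the outerCC points of EIF1 and AIMP2 form a cloud with an r of 0.150.

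In the innerCC of COCs 185 to 192, r was 0.912 between EIF1 and EIF2B2, 0.902 between EIF2B2 and AIMP2 and 0.888 between EIF1 and AIMP2 (exact permutation p = 0.00655, 0.00568 and 0.0109, adjusted p = 0.0118, 0.0118 and 0.0163). Spearman's rho was 0.786, 0.833 and 0.619 in the same order (exact permutation p = 0.0279, 0.0154 and 0.115, adjusted p = 0.0502, 0.0347 and 0.173). These relations rest on COC 192 and the library next farthest from the median: without the 2 farthest, r was 0.585, 0.556 and 0.196, none past 0.05 (exact permutation p = 0.229, 0.246 and 0.722). Without COC 192 alone r was 0.654, 0.678 and 0.597. In these libraries EIF1 and EIF2B2 had an r of 0.892 and 0.961 with the number of genes, against a median of 0.636 over all genes detected in innerCC. EIF1 had a median r of 0.661 with the other genes detected there, and 9.73% of them were at or above EIF2B2.

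Across the 16 COCs, no gene's level in the oocyte went with its level in the outerCC of the same COC past the test. Pearson's r was 0.245 for EIF1 (permutation p = 0.348, adjusted p = 0.391), 0.194 for EIF2B2 (permutation p = 0.475, adjusted p = 0.475) and 0.307 for AIMP2 (permutation p = 0.247, adjusted p = 0.318). Spearman's rho was -0.144, -0.0588 and 0.0765 (permutation p = 0.592, 0.832 and 0.779, adjusted p = 0.761, 0.832 and 0.832). The positive values of r came from COC 180, which was lowest in both libraries for all 3 genes, and without it they were -0.480, -0.334 and -0.131. Without the 2 COCs farthest from the oocyte median they were -0.352, -0.315 and -0.192. Within the sets EIF1 went opposite ways, with an r of 0.684 in COCs 176 to 184 (exact permutation p = 0.0742) and -0.808 in COCs 185 to 192 (exact permutation p = 0.0201, not adjusted). These were 0.499 and -0.679 on the TPM scale (exact permutation p = 0.210 and 0.0662).

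EIF1 had the lowest SD of the 3 genes in oocytes and in outerCC. On the log2(FPKM + 1) scale it was 0.332 over the 16 oocytes, and 4.53% of the genes detected in oocytes had a lower one, while EIF2B2 had an SD of 0.607 and AIMP2 of 0.882 against a median of 0.641 over all genes. In outerCC the SDs were 0.577, 0.719 and 0.775 against a median of 0.693, with 25.1%, 56.0% and 67.8% of genes lower. These shares are over genes of all levels, not over genes as abundant as EIF1. On the TPM scale EIF1 had an SD of 0.270 in oocytes and 0.325 in outerCC, with 1.31% and 3.40% of genes lower. AIMP2 had an SD of 0.744 in oocytes and 0.390 in outerCC on that scale, with 52.6% and 10.9% of genes lower. In the innerCC of COCs 185 to 192 the order of EIF1 and EIF2B2 was the other way, with SDs of 0.987 and 0.741 as deposited.

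The genes most like each member, by Pearson's r of log2(FPKM + 1), are given as a description because libraries share their scaling. Over the 48 libraries the 3 closest to EIF1 had an r between 0.975 and 0.986 (ENSBTAG00000046450, ENSBTAG00000014891 and UCHL1, which encodes a ubiquitin hydrolase), those closest to EIF2B2 between 0.959 and 0.964 (ENSBTAG00000007016, ENSBTAG00000005191 and ENSBTAG00000035083), and those closest to AIMP2 between 0.970 and 0.975 (ENSBTAG00000012587, ENSBTAG00000007964 and DPP3, a dipeptidyl peptidase). Within oocytes the genes named here were TMEM52 and ENSBTAG00000018628 for EIF1, ENSBTAG00000004188, ENSBTAG00000002848 and SLC25A13, a mitochondrial carrier, for EIF2B2, and TUBA1B, an alpha tubulin, ENSBTAG00000012600 and ENSBTAG00000015278 for AIMP2, with r between 0.889 and 0.958. Within outerCC they were ENSBTAG00000015720, ENSBTAG00000046959 and ENSBTAG00000001422 for EIF1, ENSBTAG00000018742, ENSBTAG00000001948 and ENSBTAG00000017744 for EIF2B2, and IMP4, which takes part in making 18S ribosomal RNA, ENSBTAG00000047186 and ENSBTAG00000010386 for AIMP2, with r between 0.966 and 0.974. On the TPM scale the 3 closest genes of EIF2B2 in outerCC were the same 3, while 0 of the 3 of EIF1 and 1 of the 3 of AIMP2 were the same. The counts for EIF1, EIF2B2 and AIMP2 were 2, 0 and 2 over the 48 libraries and 0, 1 and 1 in oocytes.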

How the data were processed

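PolyA+ RNA of 16 COCs was sequenced from SMART-seq2 libraries of the oocyte, innerCC and outerCC. The authors used STAR 2.5.2 on the UMD3.1 genome, dropped reads with several matches and duplicates (Picard 2.5), and made FPKM values per Ensembl gene with Cufflinks 2.2.1. The deposited unfiltered FPKM table was used, and the filtered FPKM table was not. Its columns were matched to samples by title, and groups follow the sample type in the title. Fragment numbers were not used here, so depths are unknown and counting intervals were not computed. The collection batch in the authors' model is not in the labels, so no batch term was fitted.

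Sample types were compared with limma 3.58.1 (R 4.3.3, eBayes without trend) on log2(FPKM + 1) over 12428 genes with FPKM over 0.5 in 8 or more of 16 libraries of a type, with Benjamini-Hochberg adjusted p under 0.01. Single values were tested with exact sign-flip permutations over COCs and correlations with 100000 permutations, or all permutations for 8 libraries (Python 3.11.15, numpy 2.4.6, scipy 1.17.1). The steps were tested on simulated data. Alternatives were a COC block, a pseudocount of 0.1, all 20010 genes above 0, the TPM and 75th percentile scales, the number of genes as a covariate, eBayes with trend, the sets of COCs, the biweight midcorrelation and each COC left out. The paired differences, and some covariation values, were recomputed on other scales and in the sets after seeing the data.

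The 3 genes, the lists and the rules for naming genes were chosen with earlier results of these data known. Named from the lists were, in the comparisons of oocyte with outerCC and of outerCC with innerCC, the gene of the largest difference past the test in each direction, other parts of a member's complex or paralogs that could be matched, and the 3 genes of highest r with each member, of which 1 is not reported here. Ratios of AIMP1, EIF1AX and EIF5 to members were added after their values were seen. Symbols were matched through gene lists of the study, and EIF1B and EIF2B4 were not matched. Of the marker lists, theca, immune and red blood cell genes had 0 matches, the 1 matched endothelial marker summed to at most 7.81 FPKM and the 2 matched fibroblast markers to at most 30.5.

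Libraries with the same number come from 1 COC. Over the genes tested, the deviations of 2 libraries of a COC from their type means had a median correlation of 0.0134 for oocyte with outerCC, 0.0536 for oocyte with innerCC and 0.103 for outerCC with innerCC. In that order 4, 2 and 8 of 16 were over 0.1, and the lowest were -0.212, -0.0893 and -0.355. The best match was the library of the same number in 2, 3 and 6 of 16. Libraries of different numbers had medians of -0.000364, 0.000946 and 0.00504.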

Additional observations from a re-analysis of the deposited data

How the results depend on the processing

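For 30 values and tests, 534 alternative settings were computed, and 462 kept the direction and the side of the threshold. EIF2B2 in oocytes against outerCC kept both under every alternative run. The fit with the COC number as a replicate block gave EIF2B2 a difference of 1.40 between oocyte and innerCC that passed the threshold, and changed no other call of the 3 genes. The cause of the changes below was not tested.

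Oocyte minus outerCC reversed for EIF1 to -0.221 on the TPM scale, -0.714 on the 75th percentile scale and -0.120 in COCs 176 to 184, and within sets to -0.563 (TPM scale, 176 to 184), -1.08 and -0.347 (75th percentile scale, 176 to 184 and 185 to 192). AIMP2 reversed to -0.413 on the 75th percentile scale, with -0.751 and -0.0746 in the sets, and to -0.278 on the TPM scale in COCs 176 to 184, and passed the threshold at 0.662 with the number of genes as a covariate. On the 75th percentile scale 4253 genes were called higher and 5648 lower, against 5394 and 4260 as deposited.

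Oocyte minus innerCC of EIF2B2 passed the threshold at 2.65 with a pseudocount of 0.1 and 2.97 in COCs 176 to 184, and reversed to -0.182 in COCs 185 to 192 and, past the threshold, to -1.03 with the covariate. It was -0.627 and -1.35 in COCs 185 to 192 on the TPM and 75th percentile scales, and its paired value weakened to 1.06 and 0.202 on these scales over all COCs. EIF1 weakened to 0.321 with the covariate and, in COCs 185 to 192, to 0.850 and 0.0504 on the TPM and 75th percentile scales, and AIMP2 to 1.52 on the latter. Leaving out 1 COC gave EIF2B2 values between 1.24 and 1.54, past the threshold without COC 190 or COC 191.

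Outer minus inner cumulus lost its calls in COCs 185 to 192 (0.997, 1.15 and 2.08 for EIF1, EIF2B2 and AIMP2), there also on the TPM scale (0.729, 0.909 and 1.93) and the 75th percentile scale (0.398, 0.581 and 1.60), and with the covariate (-0.0432, 0.301 and 1.02). Genes called higher fell from 9620 to 190 in COCs 185 to 192 and to 4 with the covariate.

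Within outerCC, EIF1 with AIMP2 had an r of 0.150 on the TPM scale and -0.110 on the 75th percentile scale, and EIF2B2 with AIMP2 0.468 on the latter. In innerCC, leaving out 1 COC gave 0.654 to 0.956 for EIF1 with EIF2B2, 0.597 to 0.972 for EIF1 with AIMP2 and 0.678 to 0.976 for EIF2B2 with AIMP2. Oocyte with outerCC of a COC ranged from -0.480 to 0.397 for EIF1, -0.334 to 0.311 for EIF2B2 and -0.131 to 0.389 for AIMP2 with 1 COC left out. EIF1 there was -0.466 (TPM scale), -0.198 (75th percentile scale), -0.0859 (biweight midcorrelation), -0.352 (without the 2 farthest COCs) and -0.808 (COCs 185 to 192), EIF2B2 -0.355, -0.294, -0.0676, -0.315 and -0.362, and AIMP2 -0.192 and -0.444 under the last 2.

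Without fragment counts, low values near 0.5 FPKM carry an unknown error.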

Other observations

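Between oocytes and innerCC, 11 of the 15 matched initiation factors and tRNA synthetases were higher in oocytes over all 16 COCs and 0 were lower by limma (1 lower at an unadjusted p under 0.05), beside 63.2% and 4.53% of all genes, with a median difference of 3.63 on the log2 scale against 1.47 over all genes tested. With the number of genes as a covariate 7 were higher and 2 lower, beside 43.7% and 22.8% of all genes. Within COCs 185 to 192, 10 of the 15 were higher and 1 was lower, beside 48.8% and 14.1% of all genes, with a median of 1.55 against 0.899. All 4 matched genes of the eIF4 group were higher in oocytes in both, and 3 of the 4 with the covariate over all COCs. The gene called lower within COCs 185 to 192 was EIF2AK2, at -1.24 ± 0.285 (SE, limma adjusted p = 0.000683), and it was named after its value was seen.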
